A study of Bos taurus with 12 samples.

Results

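The triglyceride synthesis enzymes are 8 genes of the glycerol phosphate pathway, GPAM, AGPAT1, AGPAT2, AGPAT3, LPIN1, LPIN2, DGAT1 and DGAT2. They were chosen by gene name, and each matched 1 of the 33714 rows of the mRNA table. All 8 were among the 15402 rows with a mean FPKM, fragments scaled to transcript length and library size, of at least 0.1, which were tested. FPKM is a level per length of transcript, which allows a rough comparison of levels between genes. How well it holds between these genes was not tested, and the shares and sums of steps given below depend on it.

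RNA of preadipocytes (fat cell precursors) taken from newborn Qinchuan cattle, longissimus dorsi, was sequenced on 4 days of adipogenic differentiation, with 3 libraries for each day. The 0 d cells were uninduced, in medium with 15% fetal bovine serum. By the labels, the 3 d, 6 d and 9 d cells had received 0.5 mM IBMX, 5 µg/mL insulin and dexamethasone (printed as 1 g/mL) for the first 48 h, followed by insulin alone in the same serum medium. The paper gives the insulin and dexamethasone doses in molar units, which differ from the labels. The cells of all 4 days carried no other treatment or genetic change in the labels, and the days after 0 d differ both in time and in time since the cocktail was withdrawn, which cannot be told apart. The mRNA table holds no read counts. Between 18423 and 19376 of its rows were above 0 in a library.

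In the glycerol phosphate pathway, an acyl group is first placed on glycerol 3-phosphate by GPAT enzymes such as GPAM, and a further one on lysophosphatidic acid by the AGPAT enzymes. Lipins (LPIN1 and LPIN2) then remove the phosphate from phosphatidic acid to give diacylglycerol, and DGAT1 and DGAT2 add the last acyl group to make triglyceride. In fat cells this pathway fills the lipid droplet, and its intermediates also feed the synthesis of phospholipids.

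The sequences shown are those by which GPAM and a miRNA were measured in the same cells. The paper places this miRNA with GPAM in a potential network that uses predicted targets. For bta-miR-27b, the mature sequence of the deposited miRNA table (written with T) has its seed, bases 2 to 8, in capitals. The GPAM primers were those used for qRT-PCR, whose values were not analysed here.
bta-miR-27b: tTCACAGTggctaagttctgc
GPAM forward primer: cactgaagaatgctctcctgct
GPAM reverse primer: acagtgaagatcccacccca

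LPIN1, DGAT2 and GPAM were highest at 3 d, and AGPAT2 was lowest on that day. LPIN2 was also highest at 3 d, with 17.0 FPKM on average beside 12.6 at 0 d. A gene was called when its log2 fold change, fitted with limma on log2(FPKM + 0.1), exceeded 1 in size with a Benjamini–Hochberg adjusted p-value under 0.05 over all tested rows. The added 0.1 understates the change of genes with low FPKM. At 3 d vs. 0 d, 3 of the 8 enzymes were called higher (8.06% of all tested rows) and 1 lower (15.2%). At 6 d vs. 0 d, 2 were higher (3.39% of all) and 0 lower (7.97%), and at 9 d vs. 0 d 1 was higher (3.41%) and 0 lower (7.47%). At 6 d vs. 3 d, 4 were lower (9.23% of all) and 0 higher (9.85%). At 9 d vs. 3 d, 4 were lower (10.3% of all) and 1 higher (10.2%). At 9 d vs. 6 d limma called 0 of the 8 higher (2.55%) or lower (1.89%), although 4 had an unadjusted p-value under 0.05. The adjusted p-value was under 0.05 for 4 as well (AGPAT2, AGPAT3, LPIN1 and DGAT1), whose changes were under the fold threshold. The comparisons against 0 d share the 0 d libraries, and those against 3 d share the 3 d libraries. The p-values measure the spread between these libraries, which the paper describes as biological replicates. These are levels in bulk RNA, so fewer cells of a type and less RNA per cell cannot be told apart.

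The median log2 fold change of the 8 enzymes was 0.39 at 3 d, -0.22 at 6 d and 0.26 at 9 d vs. 0 d. Over all tested rows it was -0.06, -0.15 and -0.19. Dividing each library by its median ratio to the others (rescaling) moved the median of all rows by 0.16 at 6 d and 0.19 at 9 d vs. 0 d, and by 0.12 at 9 d vs. 3 d. Of all called rows, 29.8% were higher at 6 d and 31.3% at 9 d vs. 0 d, and after rescaling 40.8% and 46.8%. The rescaled median of the 8 enzymes vs. 0 d lay between DGAT1 (0.34) and LPIN2 (0.61) at 3 d. It lay between AGPAT3 and DGAT1 at 6 d (-0.24 and 0.14) and at 9 d (0.41 and 0.53). Rescaled, LPIN1 had log2 fold changes of 4.004, 1.64 and 0.79 vs. 0 d at 3, 6 and 9 d. DGAT2 had 7.10, 5.80 and 5.97, and GPAM 2.89, 0.88 and 0.87 in the same comparisons.

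**Figure D1:**
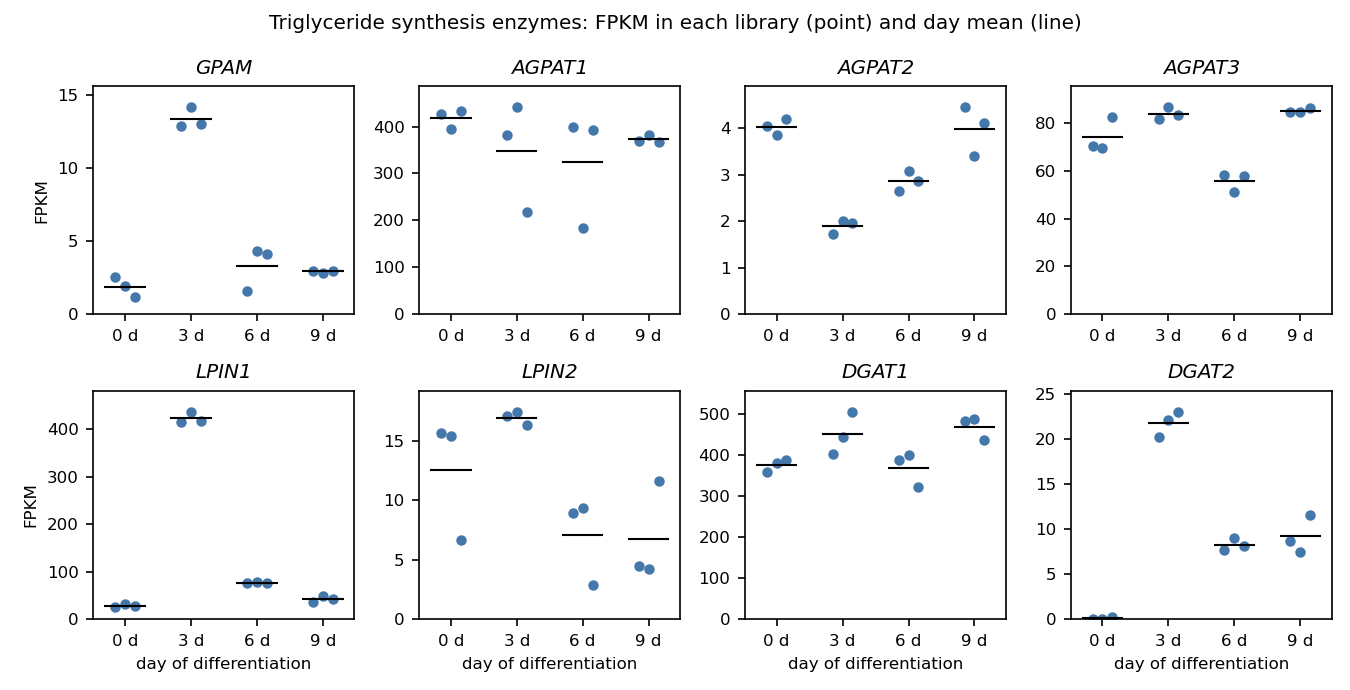
FPKM of the 8 enzymes (vertical axes, linear and starting at 0) in each of the 3 libraries of a day (points), with the mean of the day (line). LPIN1, GPAM and DGAT2 stand highest at 3 d with no overlap with any other day, as does LPIN2, narrowly over 0 d. Single libraries of AGPAT1 and LPIN2 lie far from the others of their day.

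GPAM, the mitochondrial enzyme of the first acylation, had 2.55, 1.91 and 1.2 FPKM at 0 d. At 3 d it had 12.85, 14.2 and 12.99 FPKM. At 6 d it had 1.57, 4.33 and 4.10 FPKM, and at 9 d 2.98, 2.85 and 2.96 FPKM. All 3 libraries of 3 d lay above those of every other day, while the first library of 6 d lay below 2 of the 0 d libraries. The mean rose from 1.89 ± 0.675 FPKM (SD, n = 3) at 0 d to 13.3 ± 0.742 (SD, n = 3) at 3 d, with a log2 fold change of 2.82 (SE 0.36, limma adjusted p = 8.14e-05). From 3 d to 6 d it fell by 2.095 on the log2 scale (adjusted p = 0.000748). At 6 d and 9 d vs. 0 d the log2 fold changes of 0.72 (95% interval -0.07 to 1.52) and 0.67 (-0.13 to 1.46) were not called. Without the first 6 d library, the 6 d change was 1.18 (adjusted p = 0.00557) and was called. Without the third 0 d library it was 0.45, and the 9 d change 0.39, and without the second 6 d library the 6 d change was 0.47. In order, 3 d stood above 6 d, 9 d and 0 d, and the last 3 were not called different from each other.

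GPAM was nevertheless a small part of its step at every day. Of the summed FPKM of GPAM, GPAT2, GPAT3 and GPAT4, GPAM held 0.463% ± 0.177 (SD, n = 3) at 0 d and 3.52% ± 0.493 (SD, n = 3) at 3 d. At 6 d and 9 d its share was 0.886% ± 0.405 and 0.923% ± 0.0892 (SD, n = 3). GPAT4, an enzyme of the endoplasmic reticulum, held 92.7% to 97.1% of the step in the means of the 4 days. It had 399 ± 12.5 FPKM at 0 d and 303 ± 33.7 at 9 d (SD, n = 3), a log2 fold change of -0.40 (adjusted p = 0.00796) that was under the fold threshold. GPAT3 had 10.1 FPKM at 0 d and 24.0 at 6 d on average and was called higher there (log2 fold change 1.23, adjusted p = 0.0027). The log2 ratio of GPAM to GPAT4 had means of -7.71, -4.73, -6.79 and -6.64 at 0, 3, 6 and 9 d. It differed between the days (exact permutation test of F over all partitions of the 12 libraries, p = 0.0024, adjusted p = 0.00601 over the 5 ratios tested).

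Values of the miRNA that the paper proposes as a partner of GPAM are given without a test. The deposited normalized reads of bta-miR-27b were 28597, 33086 and 27654 at 0 d, and 25891, 25277 and 26903 at 3 d. At 6 d they were 38025, 35563 and 41238, and at 9 d 48243, 44441 and 52190. By these values the miRNA was lowest at 3 d and highest at 9 d, and its libraries of 6 d and 9 d lay above all of 0 d and 3 d. The raw reads behind them were 12599 to 26541 at 0 d and 22890.5 to 30844 at 3 d. At 6 d they were 46006.5 to 66568.5, and at 9 d 40252.5 to 59015.5. The order of 0 d and 3 d, and that of 6 d and 9 d, thus rests on the authors' scaling. Back-spliced reads assigned to GPAM numbered 4 over the 12 libraries, in 3 circRNAs of chromosome 26 on the minus strand. The circRNA with 2 reads, both in the first 0 d library, joined 2 exons between positions 32695143 and 32696083. The other 2 circRNAs had 1 read each, in the second 0 d library and the first 3 d library. DGAT2 had 1 circRNA with 1 read in the first 3 d library, and the other 6 enzymes had 0. The positions are those of the deposited table. None of these circRNAs reached the 5 reads needed for a test.

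AGPAT1 makes phosphatidic acid at the endoplasmic reticulum, and was the most abundant enzyme of the second acylation. It had 427, 396 and 432 FPKM at 0 d. At 3 d it had 381, 442 and 218 FPKM, at 6 d 399, 184 and 394, and at 9 d 369, 383 and 367. The third 3 d library and the second 6 d library were low, and the others of those days overlapped with 0 d or 9 d. No change of AGPAT1 was called. At 3 d vs. 0 d its log2 fold change was -0.33 (95% interval -1.03 to 0.37). For 6 d vs. 0 d it was -0.45 (interval -1.14 to 0.25), and for 9 d -0.16 (interval -0.86 to 0.53). Without single libraries the 3 d change ranged from -0.53 (without the second 3 d library) to -0.025 (without the third). The 6 d change ranged from -0.64 (without the first 6 d library) to -0.0764 (without the second). Without the third 3 d library the 9 d vs. 3 d change turned from 0.17 to -0.14, and without the second 6 d library the 9 d vs. 6 d change turned from 0.28 to -0.09. Rescaling turned the 9 d vs. 0 d change to 0.04. In order, 0 d stood above 9 d, 3 d and 6 d, and neighbours in this order were not called different.

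In the annotation of ARS-UCD2.0, a later assembly than the cattle genome named in the paper (ARS-UCD1.2), AGPAT1 lies beside RNF5 and PPT2 and overlaps EGFL8. RNF5 had 242 FPKM in the third 3 d library and 202 in the second 6 d library, and was not low there. PPT2 had 86.4 and 66.7 FPKM in the same libraries, against 88.9 to 94.9 in the other 3 d libraries and 64.4 to 69.6 in the other 6 d libraries. EGFL8 stayed at 0.01 to 0.16 FPKM in all libraries. The paper describes strand-specific libraries, but whether the deposited FPKM used the strand is not given in the sources used here.

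AGPAT2, the isoform whose loss in people causes generalized lipodystrophy, was the lowest of the 3 AGPAT enzymes among the 8. It had 4.05, 3.86 and 4.19 FPKM at 0 d and 1.72, 2 and 1.96 at 3 d. At 6 d it had 2.64, 3.08 and 2.86 FPKM, and at 9 d 4.46, 3.4 and 4.11. The 3 d libraries lay below all others and the 6 d libraries between those of 3 d and the rest. It was called lower at 3 d vs. 0 d, with a log2 fold change of -1.05 (SE 0.11, adjusted p = 2.33e-05). This lies just past the fold threshold: without the first 3 d library it was -0.99, with rescaling -0.97 and with a pseudocount of 1 -0.80, and it was then not called. The 6 d change of -0.48 (adjusted p = 0.00737) was under the fold threshold, and with rescaling it was -0.318 (adjusted p = 0.0554). At 9 d the log2 fold change was -0.02 (95% interval -0.27 to 0.23). AGPAT2 was called higher at 9 d vs. 3 d (1.03, adjusted p = 3.3e-05), and not without the first 3 d library (0.97) or the first 9 d library (0.95), nor with a pseudocount of 1 (0.78). In order, 0 d and 9 d were not different by limma, and 6 d and 3 d followed, with adjusted p-values of 0.0163 for 9 d vs. 6 d and 0.00188 for 6 d vs. 3 d.

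AGPAT3 is an acyltransferase of the endoplasmic reticulum and Golgi that acts on lysophosphatidic acid. Its FPKM were 70.3, 69.5 and 82.4 at 0 d and 81.9, 86.8 and 83.2 at 3 d. At 6 d they were 58.1, 51.0 and 58.0, and at 9 d 84.7, 84.4 and 86.2. The 6 d libraries were below all others, and those of 3 d and 9 d overlapped. No change passed the fold threshold. The log2 fold changes of -0.41 at 6 d vs. 0 d (adjusted p = 0.00222), -0.59 at 6 d vs. 3 d (adjusted p = 0.000119) and 0.61 at 9 d vs. 6 d (adjusted p = 0.000378) were under it. Between 0 d, 3 d and 9 d no adjusted p-value was under 0.05 before rescaling. With rescaled libraries the 3 d vs. 0 d change was 0.26 (adjusted p = 0.024), the 6 d vs. 0 d change -0.24 (adjusted p = 0.0573) and the 9 d vs. 0 d change 0.41 (adjusted p = 0.00431).

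AGPAT1 held 81.4% ± 0.461 of the summed FPKM of AGPAT1 to AGPAT5 at 0 d and 78.1% ± 0.743 at 9 d (SD, n = 3). AGPAT3 held 14.4% ± 0.972 and 17.8% ± 0.395, and AGPAT2 0.786% ± 0.00872 and 0.837% ± 0.125 on the same days (SD, n = 3). In between, the share of AGPAT2 was 0.454% ± 0.151 at 3 d and 0.790% ± 0.363 at 6 d (SD, n = 3). That of AGPAT3 was 20.03% ± 5.80 and 14.8% ± 4.47, and that of AGPAT1 77.5% ± 6.57 and 79.8% ± 6.73 (SD, n = 3), in days that each hold a library with low AGPAT1. AGPAT4, a brain-enriched member outside the 8, fell at 3 d from 13.6 to 6.07 FPKM on average (log2 fold change -1.15, adjusted p = 6.29e-06). The log2 ratio of AGPAT2 to AGPAT1 did not pass the exact permutation test between days (p = 0.201, adjusted p = 0.251), nor did that of AGPAT3 to AGPAT1 (p = 0.323, adjusted p = 0.323). Without the second 6 d library the exact permutation test of the latter gave p = 0.0317 (adjusted p = 0.0396).

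LPIN1 had the highest level of the 3 lipins and, after DGAT2, the largest log2 fold change of the 8 enzymes at 3 d. It had 25.6, 31.2 and 26.9 FPKM at 0 d. At 3 d it had 416, 437 and 418 FPKM. At 6 d it had 76.5, 78.3 and 76.3 FPKM, and at 9 d 36.4, 48.4 and 41.4. No library overlapped between any 2 days. The mean was 27.9 ± 2.89 FPKM at 0 d and 424 ± 11.6 at 3 d (SD, n = 3), 15.2 times higher. The log2 fold change was 3.92 (SE 0.10, adjusted p = 8.28e-10). At 6 d it was still higher than at 0 d, by 1.47 on the log2 scale (adjusted p = 2.55e-06). At 9 d the change of 0.59 (95% interval 0.36 to 0.81, adjusted p = 0.00137) was under the fold threshold. From 3 d to 6 d LPIN1 fell by 2.46 (adjusted p = 3.26e-08), and the 9 d vs. 6 d change of -0.88 (adjusted p = 0.00022) was under the threshold. The order was 3 d, 6 d, 9 d and 0 d, with each neighbour separated at an adjusted p-value under 0.05. At 3 d its mean exceeded that of 97.3% of the tested rows, against 75.7% at 0 d.

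LPIN2, a second lipin, had a library far from the others on 3 of the 4 days. It had 15.7, 15.4 and 6.68 FPKM at 0 d and 17.1, 17.5 and 16.3 at 3 d. At 6 d it had 8.94, 9.40 and 2.84 FPKM, and at 9 d 4.46, 4.24 and 11.6. The third library was low at 0 d and 6 d and high at 9 d, and 3 d was above all other days. It was called lower at 6 d vs. 3 d (log2 fold change -1.43, 95% interval -2.63 to -0.24, adjusted p = 0.0475) and at 9 d vs. 3 d (-1.47, -2.67 to -0.28, adjusted p = 0.0413). Both lie near the threshold. Of the 12 fits without 1 library, the 6 d call was kept in 4 and lost in 8, with adjusted p-values of 0.0531 to 0.165 in the latter. These were the fits without the first or second library of 0 d or 9 d, any 1 library of 3 d, or the third of 6 d, and the last gave the largest (log2 fold change -0.88). Rescaled, neither call of LPIN2 was kept (-1.34 and -1.35, adjusted p = 0.0578 and 0.0562), nor without a filter on low FPKM (adjusted p = 0.064 and 0.0556). The 6 d call was also lost in the fit of the 6 libraries compared (adjusted p = 0.051). The 9 d call was lost in 5, without any 1 of the 3 d libraries or without the first or second 9 d library (adjusted p = 0.0795 to 0.129). No change vs. 0 d was called for LPIN2. The log2 fold change was 0.53 at 3 d (interval -0.67 to 1.72). It was -0.91 at 6 d (interval -2.099 to 0.29), and -0.95 at 9 d (interval -2.14 to 0.25). Without the third 0 d library the 3 d change was 0.124, and without the third 6 d library the 6 d change was -0.35.

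LPIN1 held 68.1% ± 8.92 of the summed FPKM of the 3 lipins at 0 d and 96.0% ± 0.106 at 3 d (SD, n = 3). It held 90.8% ± 4.02 at 6 d and 85.0% ± 7.23 at 9 d. The sum itself was 41.4 ± 6.56 FPKM at 0 d and 442 ± 12.1 at 3 d (SD, n = 3). It was 85.0 ± 4.49 FPKM for 6 d and 49.6 ± 6.81 for 9 d. The step therefore had the lowest sum of the 4 at 0 d and was similar to the other steps at 3 d. The log2 ratio of LPIN1 to LPIN2 differed between days (exact permutation test, p = 0.00377, adjusted p = 0.00628), with means of 1.24, 4.63, 3.61 and 2.77 at 0, 3, 6 and 9 d.

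**Figure D2:**
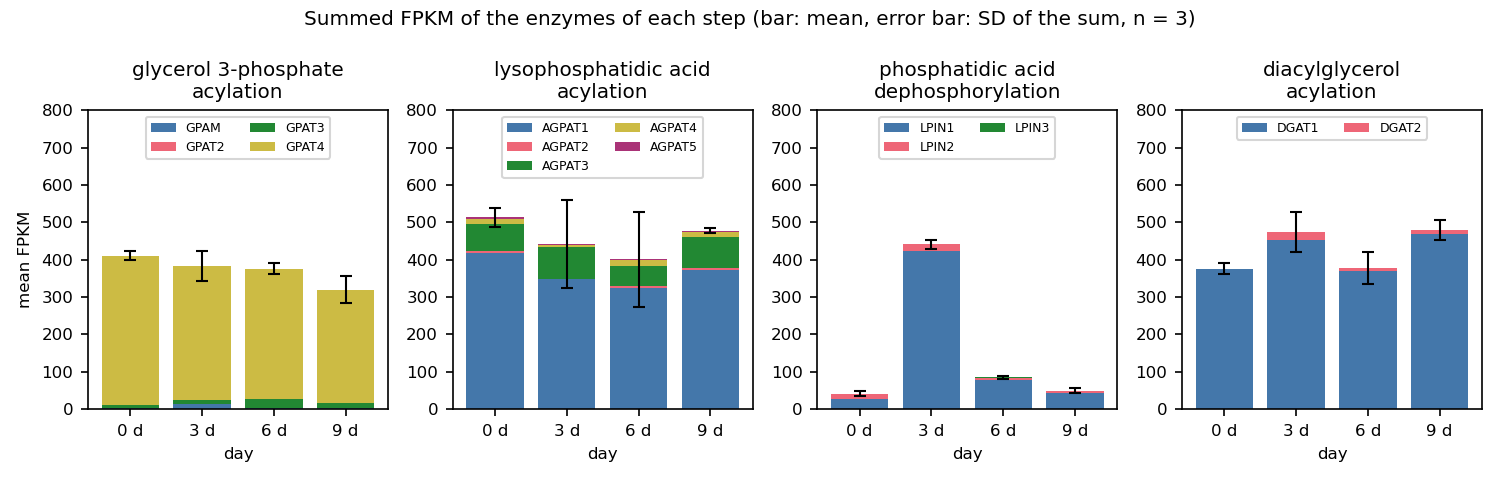
Mean FPKM (vertical axis, linear) of the enzymes of each step of the pathway, stacked, on the 4 days. Error bars are the SD of the sum over the 3 libraries. The lipin step rose to 442 FPKM at 3 d, where the other 3 steps had 382 to 474 FPKM, and the DGAT and GPAT steps stayed almost wholly DGAT1 and GPAT4.

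DGAT1, an endoplasmic reticulum enzyme of the last acylation known in cattle for its link to milk fat, was abundant on all days. It had 359, 381 and 388 FPKM at 0 d and 403, 446 and 507 at 3 d. At 6 d it had 388, 401 and 322 FPKM, and at 9 d 485, 488 and 437. The 9 d libraries lay above all of 0 d and 6 d, while those of 3 d overlapped with 9 d. No change was called. At 9 d vs. 0 d the log2 fold change was 0.32 (95% interval 0.09 to 0.55, adjusted p = 0.033), and at 3 d vs. 0 d 0.26 (0.03 to 0.49, adjusted p = 0.0569). At 6 d vs. 0 d it was -0.03 (-0.26 to 0.20), which rescaling turned to 0.14. Rescaled, the changes were 0.34 at 3 d (adjusted p = 0.0261) and 0.53 at 9 d (adjusted p = 0.00481), still under the fold threshold. The changes of -0.29 at 6 d vs. 3 d (adjusted p = 0.039) and 0.35 at 9 d vs. 6 d (adjusted p = 0.0367) were also under the fold threshold. With rescaling these changes were -0.198 (adjusted p = 0.168) and 0.387 (adjusted p = 0.034). The order was 9 d, 3 d, 0 d and 6 d, and no neighbours in it had an adjusted p-value under 0.05. DGAT1 overlaps HSF1 in the annotation, which had 2.07 to 3.53 FPKM, far below DGAT1.

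DGAT2, whose product makes much of the triglyceride of fat cells and which is unrelated in sequence to DGAT1, was barely measured before induction. It had 0.04 and 0.18 FPKM in 2 of the 0 d libraries and was listed at 0 in the other. At 3 d it had 20.3, 22.1 and 23.1 FPKM, at 6 d 7.71, 8.97 and 8.13, and at 9 d 8.72, 7.51 and 11.5. Every induced library lay above every 0 d library, and 3 d above 6 d and 9 d, which overlapped. The log2 fold changes vs. 0 d were 7.12 (SE 0.31, adjusted p = 3.35e-08) at 3 d, 5.73 (adjusted p = 4.88e-07) at 6 d and 5.87 (adjusted p = 5.59e-07) at 9 d. Their size rests on the pseudocount: at 3 d it was 4.41 with a pseudocount of 1 and 8.90 with 0.01. DGAT2 was lower at 6 d than at 3 d (-1.39, adjusted p = 0.00423) and at 9 d than at 3 d (-1.25, adjusted p = 0.00733). With a pseudocount of 0.01 these changes were -1.399 and -1.26 and were not called (adjusted p = 0.178 and 0.221). Between 9 d and 6 d the log2 fold change was 0.14 (95% interval -0.56 to 0.84).

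DGAT2 had 1.66% of the tested rows below it at 0 d, and 73.6% at 3 d. Its share of the summed FPKM of both enzymes was 0.0192% ± 0.0242 before induction and 4.62% ± 0.238 at 3 d (SD, n = 3). For 6 d it was 2.201% ± 0.257, and for 9 d 1.95% ± 0.55. At every day DGAT1 thus held over 95.2% of the FPKM of the step in each library. The log2 ratio of DGAT2 to DGAT1 had means of -11.22, -4.36, -5.46 and -5.67 at the 4 days (exact permutation test, p = 0.000325, adjusted p = 0.00162). The ratios are of FPKM + 0.1, and with DGAT2 at or near 0 the 0 d mean rests on the added 0.1.

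**Figure D3:**
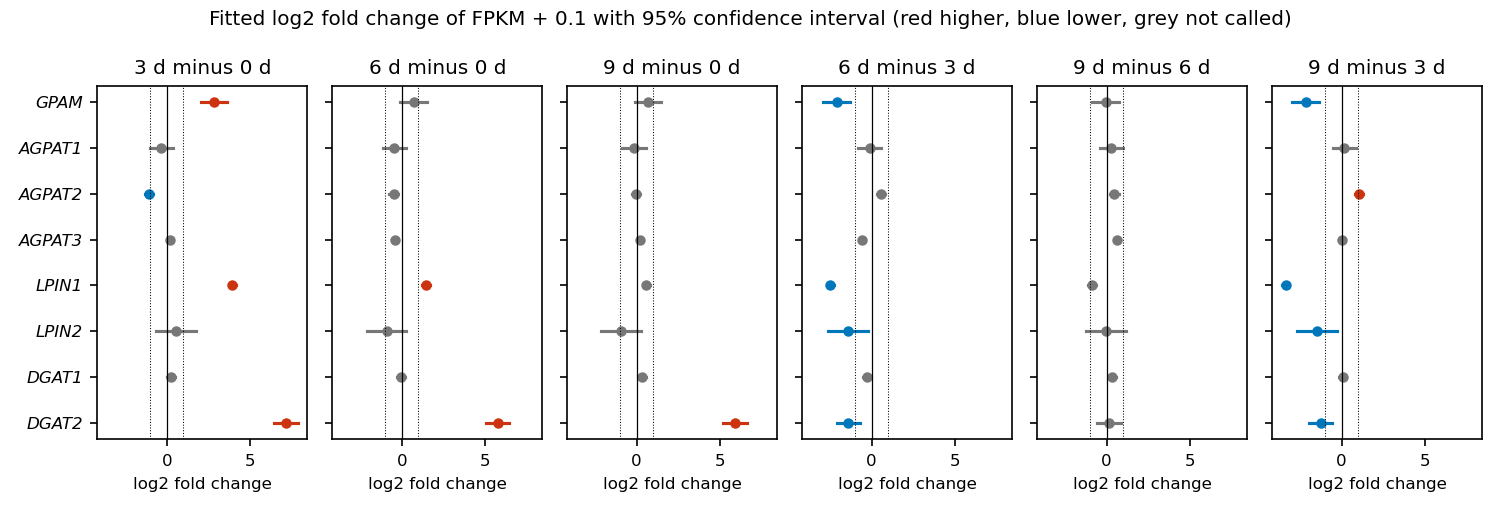
Fitted log2 fold change of each enzyme between 2 days (horizontal axis, limma on log2(FPKM + 0.1)) with its 95% confidence interval, all panels on 1 scale. Dotted lines mark a log2 fold change of 1 in size, and colours mark higher (red), lower (blue) and not called (grey). DGAT2, LPIN1 and GPAM lie furthest from 0 at 3 d vs. 0 d. The intervals of LPIN2 are the widest, followed by those of GPAM, DGAT2 and AGPAT1.

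The genes with the most similar course were taken among 10222 rows, by Pearson r of log2(FPKM + 0.1) over the 12 libraries. For LPIN1 they were FLVCR1, PDE7B and F2RL2 (r = 0.996, 0.996 and 0.995). PDE7B had 9.06 FPKM at 0 d and 325 at 3 d on average. For DGAT2 they were DDIT4, SMOC2 and SSR4 (r = 0.996, 0.994 and 0.993), and DDIT4 had 114 FPKM at 0 d and 1068 at 3 d. For GPAM they were RIC8B, BOD1L1 and HADHB (r = 0.982, 0.981 and 0.965). For AGPAT2 they were SUMF1, a row shared by GLB1 and TMPPE, and PLXNA3 (r = 0.982, 0.981 and 0.981). For AGPAT3 they were NR2F6, BTBD2 and BCL3 (r = 0.969, 0.967 and 0.962), and for AGPAT1 CDC42EP4, UBE2Z and HMGN1 (r = 0.968, 0.931 and 0.910). DGAT1 and LPIN2 had weaker neighbours, EFNB1, CERK and PRIM1 (r = 0.901, 0.884 and 0.863) and RBM38, C8H9orf40 and ZNF770 (r = 0.889, 0.882 and 0.872).

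Other enzymes of the glycerol phosphate route numbered 10, of which 9 were tested. At 3 d vs. 0 d 2 were called higher (8.06% of all tested rows) and 2 lower (15.2%). At 6 d 1 was higher (3.39% of all) and 1 lower (7.97%), and at 9 d 0 higher (3.41%) and 1 lower (7.47%). Their median log2 fold change at 3 d was -0.04, beside -0.06 over all tested rows. PLPP1, a phosphatase that also acts on phosphatidic acid, rose at 3 d (log2 fold change 1.87, adjusted p = 1.02e-05), from 12.4 to 45.6 FPKM on average. PLPP2 fell (-1.23, adjusted p = 2.22e-06), and PLPP3 fell at 6 d (-1.93, adjusted p = 6.44e-08) after a rise at 3 d (1.119, adjusted p = 9.23e-07). Of 6 genes of the monoacylglycerol route and wax synthases, 4 had a row of their own, MOGAT2 was listed at 0 in all libraries, and only MOGAT1 was tested, with 0.05 to 0.66 FPKM and no call.

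Of 10 genes that supply glycerol 3-phosphate and acyl-CoA, 2 were higher (8.06% of all tested rows) and 2 lower (15.2%) at 3 d vs. 0 d. At 6 d 0 of 10 were called (all tested rows, 3.39% higher and 7.97% lower), as at 9 d (3.41% and 7.47%). The median was -0.50 at 3 d, 0.06 at 6 d and 0.30 at 9 d, against -0.06, -0.15 and -0.19 over all tested rows. GPD1, which makes glycerol 3-phosphate, rose at 3 d (1.23, adjusted p = 9.41e-05), yet from 0.287 to 0.80 FPKM on average. PCK1 also rose (1.21, adjusted p = 0.000936), from 0.0467 to 0.23 FPKM. Its mean over all libraries was 0.116 FPKM, just over the minimum of 0.1 for testing. It reached this only through 3 d and 6 d (0.177 FPKM), with 0.01 FPKM at 9 d. The size of its change rests on the added 0.1. The acyl-CoA synthetases ACSL6 (-2.25, adjusted p = 3.63e-06) and ACSL5 (-1.11, adjusted p = 1.71e-06) fell at 3 d.

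In the phospholipid branch from phosphatidic acid and diacylglycerol, 1 of 14 tested genes was higher (8.06% of all tested rows) and 4 lower (15.2%) at 3 d. At 6 d 0 were higher (3.39% of all) and 2 lower (7.97%), and at 9 d 0 were higher (3.41%) and 1 lower (7.47%). The median log2 fold change at 3 d was 0.05 (all tested rows, -0.06). CDS1, which turns phosphatidic acid to CDP-diacylglycerol, fell from 2.69 to 0.203 FPKM at 3 d (-3.20, adjusted p = 5.27e-09). PCYT1A, which makes CDP-choline, fell from 1065 to 74.5 FPKM (-3.76, adjusted p = 3.33e-06), and CHPT1 also fell (-1.37, adjusted p = 2.52e-06). The 0 d libraries of PCYT1A spanned 560 to 1402 FPKM, and its means were 1666 FPKM at 6 d and 1495 at 9 d. SELENOI was the gene called higher at 3 d (1.07, adjusted p = 0.00712), from 10.7 to 22.4 FPKM. PCYT1B was called lower on all 3 days, by -1.22 at 3 d (adjusted p = 0.00304), -1.14 at 6 d (adjusted p = 0.0074) and -1.62 at 9 d (adjusted p = 0.000956). Of the diacylglycerol kinases, 6 of 9 were tested and limma called 0 at 3 d, 6 d and 9 d vs. 0 d.

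Among genes of triglyceride hydrolysis and droplet assembly, 6 of 12 tested were higher (8.06% of all tested rows) and 3 lower (15.2%) at 3 d. At 6 d 2 were higher (3.39% of all) and 1 lower (7.97%), and at 9 d 2 were higher (3.41%) and 2 lower (7.47%). The median was 0.66 at 3 d, 0.28 at 6 d and -0.04 at 9 d (all tested rows, -0.06, -0.15 and -0.19). PLIN2, a droplet coat protein, rose from 130 to 668 FPKM at 3 d (2.36, adjusted p = 7.25e-10). G0S2, an inhibitor of triglyceride lipase, rose from 0.0533 to 2.19 FPKM (3.96, adjusted p = 8.9e-07), and hormone-sensitive lipase LIPE rose from 0.337 to 1.92 FPKM (2.22, adjusted p = 1.85e-05). The 3 called lower at 3 d were MGLL (-1.96, from 173 to 42.3 FPKM), FITM1 (-1.50, from 9.39 to 3.25) and CIDEA (-1.03, from 11.9 to 5.81). FITM1 was also called lower at 6 d (-1.52) and 9 d (-2.18), and MGLL at 9 d (-1.04, with overlap of libraries). PLIN4 rose from 0.173 to 1.297 FPKM at 6 d (2.36, adjusted p = 2.12e-06), and PLIN5 was listed at 0 in all libraries. Among regulators, 1 of 8 tested was called vs. 0 d, MLXIPL, lower at 3 d (-1.32, adjusted p = 6.33e-05), where 15.2% of all tested rows were lower. MLXIPL went from 0.647 to 0.20 FPKM. Under the fold threshold at 3 d, CEBPB (0.97), PPARGC1A (0.88), SREBF1 (0.76), CEBPA (0.73) and NR1H3 (0.53) were higher. CTDNEP1 was lower (-0.72), and CNEP1R1 had -0.005. The median of the regulators was 0.63 at 3 d, -0.28 at 6 d and -0.27 at 9 d (all tested rows, -0.06, -0.15 and -0.19). PPARG, SREBF2, PLIN1, HILPDA, BSCL2, CHKB and DGAT2L6 share a row with another gene and were left out of these counts.

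**Figure D4:**
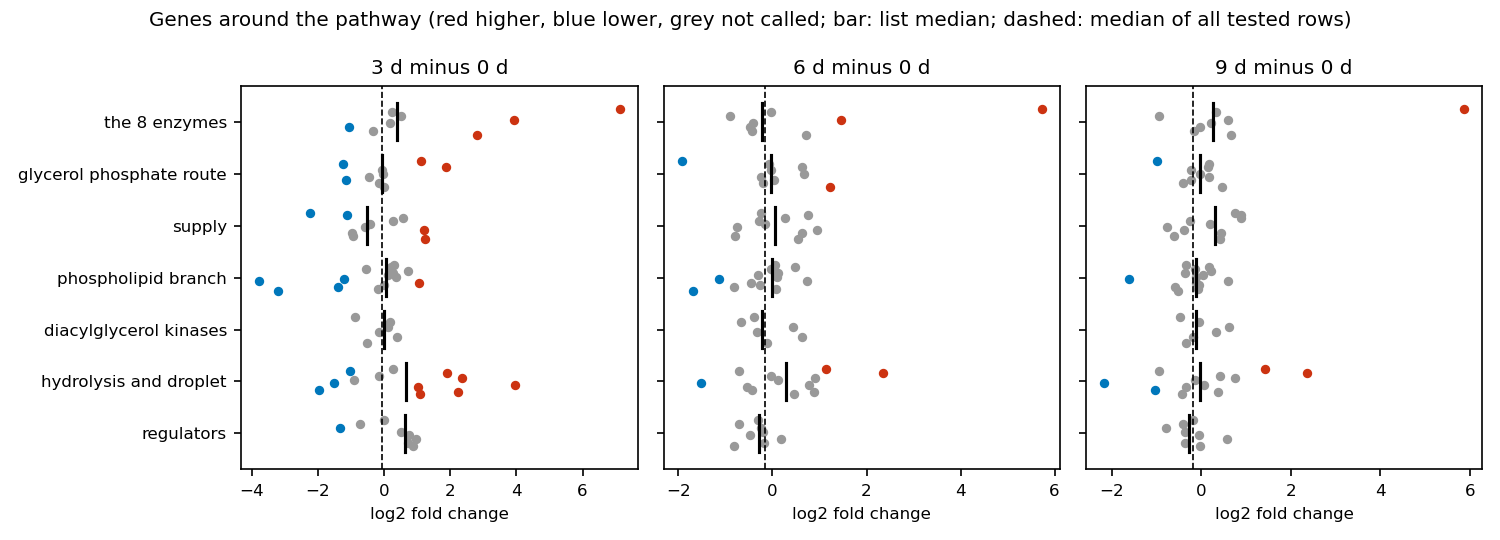
Log2 fold change vs. 0 d (horizontal axis) of each tested gene of the pathway lists at 3 d, 6 d and 9 d, with the list median (bar) and the median of all tested rows (dashed line). Red and blue points were called higher and lower. The 8 enzymes span from -1.05 to 7.12 at 3 d.

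The labelled cell type was set against marker genes. Of 12 adipocyte markers, 10 had a row of their own, and their summed FPKM was 10.5 to 11.2 before induction and 98.3 to 109 at 3 d. For 6 d it was 39.0 to 40.7, and for 9 d 32.9 to 41.6. By day mean the most abundant was LPL before induction (4.53 FPKM), FABP4 at 3 d (91.1) and 6 d (26.4), and LEP at 9 d (20.5). RETN was listed at 0 in all libraries, ADIG had 0 to 0.02 FPKM, and ADIPOQ had 0.01 to 1.64. Of 7 tested, 4 were called higher (8.06% of all tested rows) and 1 lower (15.2%) at 3 d vs. 0 d. At 6 d 5 were higher (3.39% of all) and 0 lower (7.97%), and at 9 d 5 were higher (3.41%) and 0 lower (7.47%). FABP4 rose at 3 d (log2 fold change 4.75, adjusted p = 7.43e-10), while LEP fell (-4.06, adjusted p = 1.49e-05) and was higher at 9 d (3.06, adjusted p = 0.000262). ADIPOQ rose at 3 d (2.68, adjusted p = 0.00655), and PLIN4 had its higher day means at 6 d and 9 d. Preadipocyte and fibroblast markers summed to 116286 to 123628 FPKM at 0 d and 167314 to 175139 at 3 d, led by COL3A1. They summed to 130429 to 134895 FPKM at 6 d and 212250 to 225419 at 9 d. Most of each sum was COL3A1 and DCN, and single markers moved in both directions. Of 9 tested, limma called 4 up (8.06% of all tested rows) and 3 down (15.2%) at 3 d. For 6 d the calls were 3 up (3.39% of all) with 2 down (7.97%), and for 9 d 2 up (3.41%) with 1 down (7.47%). PDGFRA (2.54, adjusted p = 2.51e-10) and THY1 (1.85, adjusted p = 2.67e-08) rose at 3 d. PDGFRB (-1.38, adjusted p = 1.73e-08) and COL1A1 (-1.68, adjusted p = 6.49e-09) fell on that day. CD34, which also fell (-1.85, adjusted p = 3.64e-05), and DLK1 were at or under 0.76 FPKM.

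Skeletal muscle markers were also present. Of 10, 8 had a row of their own, and they summed to 826 to 941 FPKM before induction, led by DES. For 3 d the sums were 271 to 300, for 6 d 379 to 421 and for 9 d 293 to 328. MYOD1, which defines myoblasts, had 240 to 303 FPKM at 0 d and fell on all later days. Of 8 tested markers, 6, 6 and 7 were lower at 3, 6 and 9 d (15.2%, 7.97% and 7.47% of all tested rows). Smooth muscle and pericyte markers summed to 1912 to 2052 FPKM before induction, led by ACTA2, and to 89.2 to 101 at 3 d, led by MYH11. For 6 d the sums were 1611 to 1724, and for 9 d 667 to 753. ACTA2 led again on the later 2 days. Of 4 tested, 3 were lower at 3 d (15.2% of all tested rows), 2 at 6 d (7.97%) and 3 at 9 d (7.47%). At 3 d vs. 0 d MYH11 went from 23.3 to 57.2 FPKM on average with no overlap of libraries, but was not called (log2 fold change 1.298, adjusted p = 0.118). Endothelial markers summed to 2.52 to 3.71 FPKM in any library, led by VWF, with PECAM1 and KDR at or near 0. Of 3 tested, 1 was called lower at 6 d (7.97% of all tested rows). Blood and immune markers, led by CD14, summed to 1.1 to 1.34 FPKM before induction and 3.36 to 3.69 at 3 d, with PTPRC and HBB at 0. For 6 d the sums were 1.82 to 1.87, and for 9 d 2.2 to 3.36. Of 3 tested, 2 were higher at 3 d (8.06% of all tested rows), CD14 (1.71, adjusted p = 2.67e-05) and CSF1R (1.23, adjusted p = 0.00127), and 1 at 9 d (3.41%). The part of these cell types in the changes of the enzymes was not tested.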

How the data were processed

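The 12 libraries (3 each at 0, 3, 6 and 9 d) were grouped by the day in their labels. The authors' processing notes name HISAT2 2.0, StringTie 1.3.0 and Bowtie 0.12.2, and a build, mm8, that is not a cattle build. The paper names the cattle genome ARS-UCD1.2 and other versions of the aligners. Neighbouring genes were read from ARS-UCD2.0. The labels describe poly(A) selection, whereas the methods of the paper describe depletion of ribosomal RNA. The deposited mRNA values are FPKM, and the circRNA values are a count of back-spliced reads. The deposited raw miRNA values are an estimated count, and the normalized miRNA values are a signal that the authors scaled for each library. No library read total is held in the FPKM. The lncRNA table was not used, and 0 columns of values lacked a known sample.

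Log2(FPKM + 0.1) of rows with a mean FPKM of at least 0.1 was fitted with limma 3.58.1 (trend, not robust) in R 4.3.3, with 1 mean per day over all 12 libraries. Benjamini–Hochberg adjustment ran over all tested rows of a comparison. The method was tested on simulated data. Ratios of paralogs within a library were tested by exact permutation. Python 3.11.15, NumPy 2.4.6, pandas 2.3.3, SciPy 1.17.1 and Matplotlib 3.10.9 were used.

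The 8 enzymes, lists and markers were chosen with earlier results of these data known. Named genes were the 8 enzymes, the 3 rows most similar to each (mean FPKM of at least 1, no LOC name), and from each list at most 4 called genes with the largest change and no overlap of libraries, beside those listed at 0. Other genes in the text were chosen after their values were seen. Alternatives were other pseudocounts, filters, rescaling, fits of 6 libraries, a replicate block and leaving out each library.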

Additional observations from a re-analysis of the deposited data

How the results depend on the processing

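Under every alternative LPIN1 and DGAT2 kept the direction of each called change, and so did GPAM. Without single libraries the number of enzymes called was 3 to 4 at 3 d vs. 0 d, 2 to 3 at 6 d vs. 0 d, 1 at 9 d vs. 0 d, 3 to 4 at 6 d vs. 3 d, 0 at 9 d vs. 6 d and 3 to 5 at 9 d vs. 3 d. Signs turned only for changes that were not called. Without single libraries the log2 fold change at 9 d vs. 6 d was -0.51 to 0.19 for GPAM, -0.0876 to 0.47 for AGPAT1, -0.59 to 0.25 for LPIN2 and -0.0281 to 0.28 for DGAT2. For AGPAT1 it was -0.42 to 0.25 at 6 d vs. 3 d and -0.14 to 0.37 at 9 d vs. 3 d, and for AGPAT2 -0.106 to 0.0849 at 9 d vs. 0 d. For DGAT1 it was -0.0908 to 0.0676 at 6 d vs. 0 d and -0.0189 to 0.147 at 9 d vs. 3 d. Rescaled, the 9 d vs. 0 d change was 0.0445 for AGPAT1 and 0.18 for AGPAT2, and the 6 d vs. 0 d change of DGAT1 was 0.14. The cause was not tested. With a pseudocount of 0.01 the falls of DGAT2 at 6 d and 9 d vs. 3 d lost their call (-1.399 and -1.26, adjusted p = 0.178 and 0.221).

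A pseudocount of 1 lowered the calls over all mRNAs to 2184 at 3 d vs. 0 d, 967 at 6 d vs. 0 d, 888 at 9 d vs. 0 d, 1688 at 6 d vs. 3 d, 368 at 9 d vs. 6 d and 1863 at 9 d vs. 3 d. In the order of these comparisons they were 3585, 1749, 1675, 2939, 683 and 3157 before. A mean FPKM of at least 1 gave 1114 at 9 d vs. 0 d, since fewer rows were tested. The exact p-value for AGPAT3 to AGPAT1 was 0.0317 to 0.463 without single libraries, and the other 4 ratios kept their side of the threshold.

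Deviations of libraries that share a replicate number correlated weakly (r from -0.098 to 0.112 over 18 pairs, mean 0.027). Between libraries with different numbers r was -0.19 to 0.183 over 36 pairs (mean -0.014). Whether the number marks a pairing cannot be told from these values. With a replicate block, LPIN2 was not called at 6 d vs. 3 d (-1.43, adjusted p = 0.07) or 9 d vs. 3 d (-1.47, adjusted p = 0.0625). All mRNA calls at 3 d vs. 0 d were 3591 with the block. The planned test of circRNAs of these genes and its alternatives were not run, because no circRNA of an enzyme reached 5 reads.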

Other observations

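Single libraries that stand apart, as for LPIN2 and AGPAT1, were counted over all rows with a mean FPKM of at least 1, a count chosen after these values were seen. Of 11331 rows, 1525 (13.5%) had a day on which 1 library differed over 2-fold from both others while these differed by under 1.2-fold. Each library stood apart in 158 to 233 rows. Among the 8 enzymes this held for LPIN2 (the third libraries of 0 d, 6 d and 9 d), GPAM (the first 6 d library) and AGPAT1 (the second 6 d library).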
